A study of Mus musculus with 6 samples.

Results

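The genes described here encode the proteins of the cytosolic ribosome. They were chosen by symbol: rows of the form Rpl or Rps with a number, the 3 acidic stalk proteins Rplp0 to Rplp2, and Rpsa, with at least 10 counts in 3 or more of the 6 libraries. Of 55433 gene rows, 89 carried such a symbol and 83 reached the minimum: 46 genes of the large subunit, 31 of the small subunit and 6 paralogs, which are extra copies of a subunit gene (Rpl22l1, Rps27l, Rps4l, Rpl7l1, Rpl32l and Rps3a2). All 83 were among the 17711 genes tested. The least counted was Rps3a2, with 14, 10 and 12 counts in the libraries labelled NFIAcKO and 15, 36 and 24 in those labelled control. Just outside stood Rps3a3, with 8, 7 and 7 counts in NFIAcKO and 7, 15 and 12 in control. The other 5 left out were Rpl10l and Rps12l1, at 0 in every library, Rpl39l, at 1, 0 and 0 counts in NFIAcKO and 4, 6 and 10 in control, and Rpl3l and Rpl6l, at 7 counts or fewer in each library.

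RNA was sequenced from whole spinal cords of C57BL/6J mouse embryos at stage E13.5. The 3 libraries labelled NFIAcKO came from embryos that carried the floxed Nfia allele, written NFIA-ff, together with Nestin-cre, a cre transgene active in progenitors of the nervous system and inherited by the cells born from them. The 3 libraries labelled control came from embryos that carried NFIA-ff and no cre. The study asks how the transcription factor NFIA acts in the developing cord. The floxed allele was shared by all 6 embryos, and cre was present only with the label NFIAcKO, so an effect of the transgene and one of the deletion cannot be told apart.

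Each ribosome is built from 1 copy of nearly every ribosomal protein, so the genes for them are among the most highly expressed in growing cells and their levels tend to move together. Most of their mRNAs begin with a C followed by an unbroken run of pyrimidines, the terminal oligopyrimidine tract, through which mTOR signalling and the RNA-binding protein LARP1 control their translation and stability. Dividing progenitors of the embryonic nervous system make many ribosomes, and in people mutations of several of these genes cause Diamond-Blackfan anaemia.

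Libraries held 47388945 to 48947073 counts assigned to genes in NFIAcKO and 43393053 to 51465763 in control. Nfia itself was higher in NFIAcKO, at 106, 108 and 119 CPM (counts scaled to a common library size, with TMM factors), against 60.1, 59.0 and 79.2 CPM in control (log2 fold change 0.75, SE 0.11, adjusted p = 0.0031). Exons outside the floxed part are counted too, so this level does not test the deletion, but it goes against the label, so the libraries are named by their labels and every direction below is relative to those labels. Fold changes are NFIAcKO over control, and a gene was called at an adjusted p under 0.05 in edgeR's quasi-likelihood test with Benjamini-Hochberg adjustment over all genes tested. The labels name no litters or separate preparations, so the p-values measure the spread between these 6 samples. Xist was read only in replicate 2 of each group, apart from at most 3 counts in the other 4 libraries. All 12 markers of spinal cord and neural tube were present, with a summed level of 4801 to 5611 CPM in NFIAcKO and 4291 to 4822 CPM in control.

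To show the tract at the start of these genes, promoter windows were taken from the RefSeq table of GRCm38.p6, which matched 61 of the 83 genes by symbol. The lines give 30 bases before to 15 bases from the annotated start, 5′ to 3′ on the gene's strand, with runs of 8 or more C or T in capitals. The first 6 are those with the longest run at the start in each subunit, and the last 4 set a paralog before the gene it copies.
Rpl7a, chr2:26910777-26910821, plus strand: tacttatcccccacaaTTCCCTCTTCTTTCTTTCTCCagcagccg
Rpl27a, chr7:109519165-109519209, plus strand: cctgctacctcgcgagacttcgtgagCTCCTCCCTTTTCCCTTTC
Rpl35, chr2:39005117-39005161, minus strand: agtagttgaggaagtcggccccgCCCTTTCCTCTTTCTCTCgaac
Rps10, chr17:27635230-27635274, minus strand: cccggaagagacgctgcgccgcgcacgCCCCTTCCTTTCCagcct
Rps18, chr17:33955651-33955695, minus strand: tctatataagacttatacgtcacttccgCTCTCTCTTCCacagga
Rps6, chr4:86857353-86857397, minus strand: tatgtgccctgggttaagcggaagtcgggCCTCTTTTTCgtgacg
Rpl22l1, chr3:28805478-28805522, plus strand: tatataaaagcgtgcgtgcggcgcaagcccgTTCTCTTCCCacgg
Rpl22, chr4:152325696-152325740, plus strand: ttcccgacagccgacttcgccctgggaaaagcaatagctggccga
Rps27l, chr9:66946056-66946100, plus strand: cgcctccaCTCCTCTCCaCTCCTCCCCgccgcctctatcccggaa
Rps27, chr3:90213634-90213678, minus strand: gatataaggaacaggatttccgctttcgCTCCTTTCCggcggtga
A run of 8 or more pyrimidines reached within 5 bases of the annotated start in 19 of 57 large and small subunit promoters (33.3%), against 9.63% of all 27025 promoters in the table. The longest of those printed, of 21 bases, stood in Rpl7a, which encodes a large subunit protein. Where the table places the start decides which bases fall there, so Rpl22 and others without a run in this window are not shown to lack a tract.

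Other short motifs were searched on both strands of the 300 base window from 250 before to 50 after the start. CCGGAAG, which ETS family factors bind, was in 23 of 57 large and small subunit promoters (40.4%) and in 9.12% of all promoters. CACTTCC, whose reverse complement GGAAGTG can overlap CCGGAAG, was in 24.6% against 11.2%, and AAGATGG, the core of the YY1 motif, in 14.0% against 6.48%. TATAAA was in 8.77% of these promoters and 14.2% of all. These are matches of letters only.

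Ribosomal protein mRNAs took a smaller share of the libraries labelled NFIAcKO. The 83 genes held 1.91, 2.01 and 1.82% of counts in NFIAcKO replicates 1 to 3, against 2.63, 3.06 and 2.34% in control replicates 1 to 3, which is 1.91 ± 0.0957% in NFIAcKO and 2.67 ± 0.363% in control (SD, n = 3 each). The groups did not overlap, control replicate 2 stood highest, and control replicate 3 lay nearest to NFIAcKO. Large subunit genes held 1.10, 1.16 and 1.06% in NFIAcKO and 1.49, 1.71 and 1.34% in control. Small subunit genes held 0.792, 0.833 and 0.742% in NFIAcKO and 1.11, 1.32 and 0.978% in control. Both subunits thus had the same order of libraries. In whole cords, fewer cells of a type and less RNA per cell cannot be told apart.

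**Figure D1:**
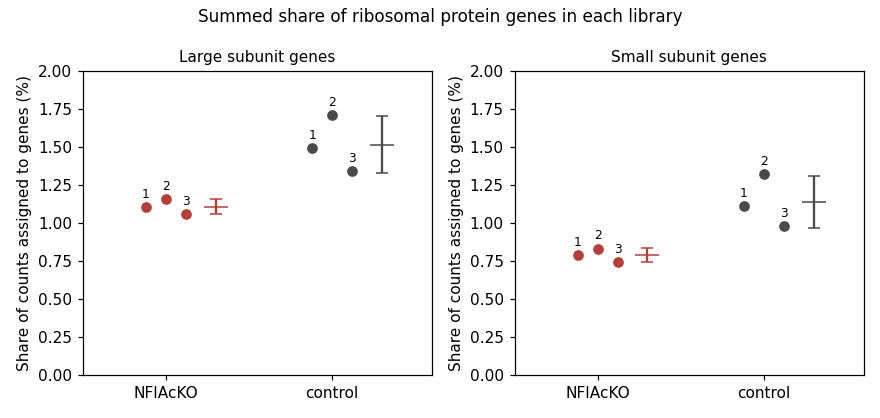
Summed share of counts assigned to genes (%, vertical axis) taken by large subunit genes (left) and small subunit genes (right) in each library, with the mean and SD of each group beside the points and the replicate number above each. The 3 NFIAcKO libraries lie between 1.06 and 1.16% (large) and between 0.742 and 0.833% (small), below all 3 control libraries.

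Of the 46 large subunit genes, 32 fell in NFIAcKO and 0 rose (edgeR). Of the 31 small subunit genes, 26 fell and 0 rose, and of the 6 paralogs 3 fell. Across all genes tested, 6.08% were lower and 7.86% higher by the same rule. All 83 estimates lay below 0, against 51.1% of all genes, also under every other scaling tried. The median log2 fold change was -0.44 for the large subunit, -0.50 for the small subunit and -0.72 for the paralogs, beside -0.01 for all genes tested. The paralog median includes the barely counted Rpl32l (-0.88) and Rps3a2 (-1.02), neither of them called. At an unadjusted p under 0.05 no member was higher either, and DESeq2 and limma-voom called 0 higher. In 37 large subunit genes, 27 small subunit genes and 6 paralogs, all 3 NFIAcKO libraries lay below all 3 control libraries, as they did in 16.1% of all genes. In the plot of fold changes, the lowest estimate of the large subunit is -0.73 and that of the small subunit -0.80.

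**Figure D2:**
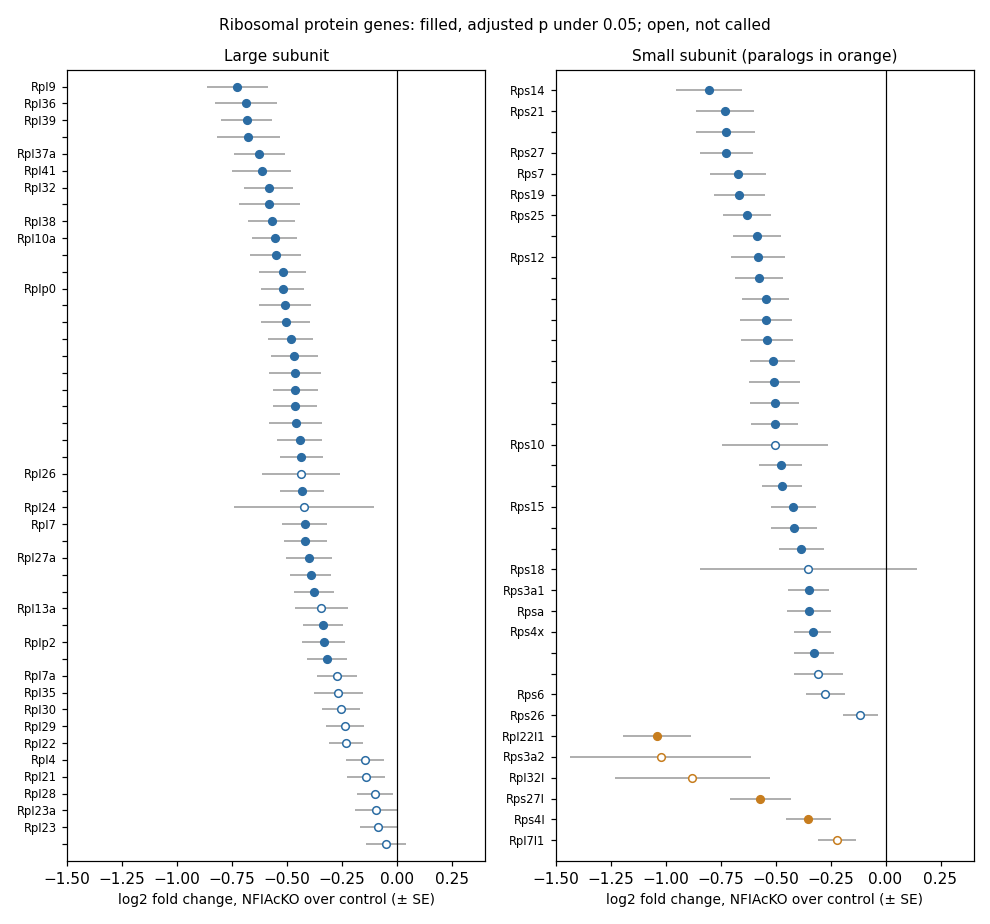
Log2 fold change, NFIAcKO over control, with its SE (horizontal axis), for each large subunit gene (left) and each small subunit gene and paralog (right), sorted by size within each class. Filled points passed an adjusted p under 0.05 and open points did not; every point lies left of 0, with Rpl22l1 (-1.04) farthest. Only genes named in the text are labelled.

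The number of calls rested on single libraries, among the members and over all genes. Without NFIAcKO replicate 3, 7 large and 9 small subunit genes were called, without NFIAcKO replicate 1 it was 9 and 11, and without control replicate 1 it was 15 and 18. Without control replicate 3 it was 38 and 28. Over all genes tested, the same fits in this order called 150, 139, 220 and 2466 lower, against 1076 with every library. In all 7 fits, with every library and with each left out, 17 members were called lower: 7 of the large subunit, 9 of the small subunit and Rpl22l1. Of all genes tested, 0.503% were called lower in all 7.

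The large subunit calls ran from a fall of 0.32 to a fall of 0.73 on the log2 scale. Rpl39, a very small protein of the peptide exit tunnel, had the smallest p of the subunit. It stood at 52.3, 57.4 and 47.9 CPM in NFIAcKO and 84.7, 98.7 and 69.5 CPM in control. All NFIAcKO libraries were below all control libraries, and Rpl39 fell by 0.68 on the log2 scale (SE 0.11, adjusted p = 0.00534). The gene (ENSMUSG00000079641.3) lies at chrX:37082520-37085402 of GRCm38 on the minus strand. Rplp0, the scaffold of the acidic stalk that recruits elongation factors, stood at 663, 720.2 and 645 CPM in NFIAcKO and 954, 1092 and 861 CPM in control. The groups were again apart, and Rplp0 fell by 0.52 (SE 0.10, adjusted p = 0.007). Rpl38, whose loss in mice disturbs the patterning of the axial skeleton and the translation of Hox mRNAs, stood at 67.3, 63.9 and 54.7 CPM in NFIAcKO and 91.5, 105 and 79.1 CPM in control. It fell by 0.57 (SE 0.11, adjusted p = 0.007) with no overlap between groups.

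Rpl10a, a protein of the mobile L1 stalk, and Rpl37a completed the 5 with the smallest p. Rpl10a stood at 123, 129 and 110.2 CPM in NFIAcKO and 171, 206 and 155 CPM in control, a fall of 0.56 on the log2 scale (adjusted p = 0.00644). Its exons overlap those of CT025652.2. Rpl37a stood at 125, 140.3 and 107 CPM in NFIAcKO and 193, 219 and 163 CPM in control, a fall of 0.63 (adjusted p = 0.00728). Each of these 5 was separate between groups and was called with any 1 library left out. Rpl9 had the lowest estimate of the subunit, at 274, 291 and 242 CPM in NFIAcKO and 428, 553 and 353 CPM in control, a fall of 0.73 (SE 0.14, adjusted p = 0.00941). Rpl36 came next, with 114, 121 and 96.6 CPM in NFIAcKO and 177, 216 and 139.9 CPM in control, a fall of 0.69 (adjusted p = 0.0126). In both, control replicate 2 was the highest library and NFIAcKO replicate 3 the lowest.

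At the other end were large subunit genes with estimates near 0. Rpl23, a protein on the face that meets the small subunit, had 353, 411 and 369 CPM in NFIAcKO and 407, 411 and 384 CPM in control (log2 fold change -0.08, SE 0.08, adjusted p = 0.549). The groups overlapped, NFIAcKO replicate 2 being as high as the control libraries. Rpl4, which reaches into the exit tunnel, had 901, 966 and 847 CPM in NFIAcKO and 1010.1, 1026 and 967 CPM in control (-0.15, adjusted p = 0.278), with the groups only just apart. The 14 large subunit genes that were not called also included Rpl21, Rpl22, Rpl23a, Rpl28, Rpl29, Rpl30, Rpl35, Rpl7a and Rpl13a, together with Rpl26 and Rpl24, described below. Rpl4 hosts small nucleolar RNA genes in its introns, whose reads cannot be told from the host's where their annotation overlaps its exons.

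Levels between genes were compared per length, as CPM per kb of the longest annotated protein-coding transcript. By the mean of both groups, the 3 highest of the large subunit were Rpl7a, Rpl41 and Rpl4. In control alone Rplp0, at 714, stood above Rpl4, at 651. Rpl41, a peptide bridge between the subunits, had 541 CPM per kb in NFIAcKO and 829 in control. It fell by 0.62 on the log2 scale (SE 0.13, adjusted p = 0.0137), with 317, 346 and 281 CPM in NFIAcKO and 468, 591 and 388 CPM in control. Rpl7a, with the long run of pyrimidines printed above, had 626 CPM per kb in NFIAcKO and 756 in control. Its CPM were 552, 614 and 551 in NFIAcKO and 687, 755 and 631 in control (-0.27, SE 0.09, adjusted p = 0.0601), just outside the threshold with groups apart. Rpl41 was thus among the lower estimates of the subunit, and Rpl7a and Rpl4 were not called. Across the 77 large and small subunit genes, Spearman's rho of the log2 fold change was 0.15 with the mean CPM, 0.25 with mRNA length, 0.10 with exonic length and -0.09 with GC content, as a description over genes that share their libraries.

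In the small subunit, Rps25, Rps27 and Rps19 had the smallest p. Rps25, used by several viral mRNAs to enter the ribosome, stood at 138, 146 and 132 CPM in NFIAcKO and 214, 252 and 178 CPM in control. It fell by 0.63 on the log2 scale (SE 0.11, adjusted p = 0.00547), and its exons overlap Trappc4 and Ccdc84. Rps27 (ENSMUSG00000090733.6, chr3:90212522-90213651, minus strand) stood at 153, 163 and 135 CPM in NFIAcKO and 240.4, 299 and 205 CPM in control. It fell by 0.72 (SE 0.12, adjusted p = 0.00568). Both were apart between groups, with control replicate 2 highest. Rps19, the gene most often mutated in human Diamond-Blackfan anaemia, stood at 135, 137 and 115 CPM in NFIAcKO and 202, 242 and 169.8 CPM in control, a fall of 0.67 (adjusted p = 0.0061).

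These 3 genes were called with any 1 library left out. The lowest estimates of the subunit were those of Rps14 and Rps21. Rps14, lost in the human 5q- syndrome, stood at 219.6, 227 and 177 CPM in NFIAcKO and 353, 449 and 289 CPM in control, a fall of 0.80 (SE 0.15, adjusted p = 0.00999). Rps21 stood at 102, 111 and 95.7 CPM in NFIAcKO and 164, 211 and 136 CPM in control, a fall of 0.73 (SE 0.13, adjusted p = 0.00805). In both, NFIAcKO replicate 3 was the lowest library and the groups did not overlap.

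Per length, Rps15 and Rps12 were the highest of the small subunit, at 564 and 539 CPM per kb in NFIAcKO and 754 and 806 in control. Rps12 fell by 0.58 (log2 fold change; adjusted p = 0.011), with 312, 329 and 304 CPM in NFIAcKO and 449, 578 and 385 CPM in control. Its exons overlap 3 small RNA genes. Rps15, which sits by the decoding site, fell by 0.42 (adjusted p = 0.0173), with 311, 358 and 299 CPM in NFIAcKO and 423, 491 and 379.7 CPM in control. Groups were apart for both. Of the 5 small subunit genes that were not called, Rps26, at the mRNA exit, had the estimate nearest to 0: 315, 349 and 324 CPM in NFIAcKO and 358, 367 and 345 CPM in control (-0.11, SE 0.08, adjusted p = 0.37). Rps6, the protein phosphorylated by S6 kinase downstream of mTOR, had 246, 268 and 258 CPM in NFIAcKO and 301, 348 and 286 CPM in control (-0.28, SE 0.09, adjusted p = 0.0513). Rps26 overlapped between groups and Rps6 did not.

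The terminal tract was also counted by call. A run of 8 or more pyrimidines at the start was found in 9 of 43 called large and small subunit genes with a promoter and in 10 of the 14 not called. The 3 longest runs printed for the large subunit belong to Rpl7a and Rpl35, which were not called, and to Rpl27a, which fell by 0.40. The 3 of the small subunit belong to Rps10, Rps18 and Rps6, none of them called. This split was noticed after the values were seen and was not tested. CCGGAAG was in 17 of the 43 called and in 6 of the 14 not called. Small nucleolar RNAs lie within 30 of the 77 large and small subunit genes, of which 22 fell (median log2 fold change -0.43), while 36 of the 47 without one fell (median -0.47).

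Most of the genes moved together across the libraries. Relative to each gene's own mean over the 6 libraries, the median of the 77 large and small subunit genes was -0.24, -0.12 and -0.32 on the log2 scale in NFIAcKO replicates 1 to 3, and 0.22, 0.44 and 0.03 in control replicates 1 to 3. The same median over all genes tested was at most 0.02 in size. Control replicate 2 was thus farthest above and NFIAcKO replicate 3 farthest below, with control replicate 3 near the mean. Of the genes close to no change, Rpl23, Rpl23a, Rpl28, Rpl4 and Rps26 lay 0.33 to 0.38 below the others in control replicate 2, where the heat map of the libraries is paler for them.

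**Figure D3:**
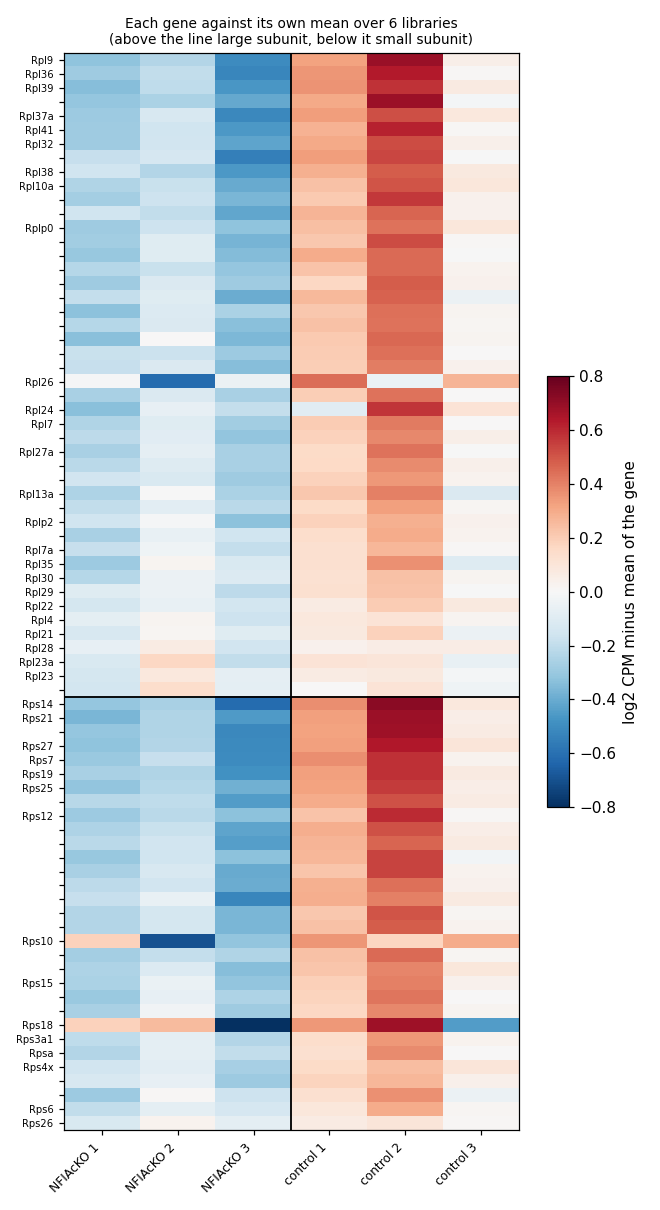
Log2 CPM of each large subunit gene (above the line) and small subunit gene (below it) minus its mean over the 6 libraries, in NFIAcKO replicates 1 to 3 (left) and control replicates 1 to 3 (right); blue is lower and red higher. Most rows share one pattern, with control 2 darkest red and control 3 pale, while Rpl26, Rps10 and Rps18 break it; only genes named in the text are labelled.

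A few genes did not follow their group, and were singled out after their values were seen. Rps18, a protein of the small subunit head, had 197, 207 and 85.8 CPM in NFIAcKO and 221, 277 and 127 CPM in control (log2 fold change -0.35, SE 0.49, adjusted p = 0.701). It was low in replicate 3 of both groups, the pair of libraries whose deposited names share a number that the other 4 do not carry. Rpl26 had 185, 121 and 179.8 CPM in NFIAcKO and 253, 180.3 and 224 CPM in control (-0.44, SE 0.18, adjusted p = 0.141). It was low in replicate 2 of both groups, the libraries with Xist reads. For both genes, the spread between replicates was as wide as the difference between groups. With the replicate number as a block in edgeR, both were called lower (adjusted p = 0.019 for Rps18 and 0.00751 for Rpl26). Nothing in the labels says that same-numbered libraries share a source. The cause of the low libraries was not tested.

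Rpl24 and Rps10 were nearly uncounted. Rpl24 had 0.537, 0.647 and 0.592 CPM in NFIAcKO and 0.637, 1.01 and 0.731 CPM in control. Of its 1030 exonic bases, 484 are shared on the same strand with Gm28037, which had 0 counts in every library. Rps10 had 2.06, 1.12 and 1.46 CPM in NFIAcKO and 2.32, 2.05 and 2.24 CPM in control, and 475 of its exonic bases are shared on the same strand with RPS10-NUDT3. HTSeq by default assigns a read on 2 genes to neither, and its setting is not known here, so these values may fall short of the levels of the mRNAs. The exons of 38 of the 83 members share bases with another annotated gene, 22 of them with one other than a small nucleolar RNA or miRNA. Among them, Rpl13a shares 621 of its 2114 exonic bases on the same strand with Gm45713, so its counts may fall short too.

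Copies elsewhere in the genome limit all of these counts. Ribosomal protein mRNAs have left many processed pseudogenes, and 76 of the 77 large and small subunit genes had another annotated gene with 95% identity over at least 100 bases (median 6 such genes, highest 62). The 309 pseudogene rows together held 0.00324 to 0.00372% of counts in NFIAcKO and 0.00439 to 0.00571% in control. Reads aligned to several places, which were not assigned to any gene, made up 8.94, 9.13 and 9.05% of NFIAcKO files and 9.94, 10.5 and 9.41% of control files. That share was highest in control replicate 2, where the ribosomal protein genes were also highest. Its part in the result was not tested.

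Ribosomal protein mRNAs are short, and in these libraries counts moved with length. The median mRNA length was 955 bases in the large subunit and 887 in the small subunit, beside 2926 in all genes tested. Each gene's log2 CPM was taken relative to its own mean over the libraries, so the slopes compare libraries with each other. Against log2 exonic length, the slope was 0.0676, 0.0396 and 0.0933 in NFIAcKO and -0.0645, -0.117 and -0.0189 in control. Libraries with a more negative slope thus had relatively more counts in short genes, ribosomal protein genes among them. With the trend of exonic length and GC content taken out of each library, 22 large and 17 small subunit genes and 1 paralog were lower and 0 higher, against 3.88% of all genes lower and 3.83% higher. At an unadjusted p under 0.05, 1 large subunit gene was then higher. The medians were -0.26, -0.34 and -0.35 for large, small and paralogs, and 71 of the 77 large and small subunit estimates lay below 0, against 48.7% of all genes. Those above 0, none of them called, included Rpl23, Rpl23a, Rpl28, Rpl4 and Rps26.

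With length taken as that of the longest protein-coding transcript in place of all exons, a choice made after seeing the data, 12 large and 13 small subunit genes and 1 paralog were lower and 0 higher, against 2.29% of all genes in each direction. At an unadjusted p under 0.05, 3 large and 1 small subunit gene were then higher. Of the 77 large and small subunit estimates 68 lay below 0, against 49.2% of all genes. The medians were -0.14, -0.23 and -0.33, so the length measure changed the size of the shift by more than 1.5 times in the large subunit, as the plot of estimates with and without the trend shows. Annotated transcripts of some members are long, such as 2690 bases for Rpl9. The 17 members called in all 7 fits above were also called in both fits with a trend removed, among them Rpl10a, Rpl32, Rpl37a, Rpl38, Rpl39, Rpl9, Rplp0, Rps14, Rps19, Rps21, Rps25, Rps27, Rps7 and Rpl22l1. Of all genes tested, 0.446% met all of these. The trend of exonic length was also removed with 1 library left out. Without NFIAcKO replicate 1, 2 or 3 or control replicate 1, 0 to 1 large and 0 small subunit genes were lower. Over all genes tested, the same fits in this order called only 2, 21, 7 and 1 lower. Without control replicate 2, 8 large and 9 small subunit genes were lower, and 89 of all genes. Without control replicate 3 it was 32, 23 and 1863. A real shift of short mRNAs and a bias with length cannot be told apart from these counts.

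**Figure D4:**
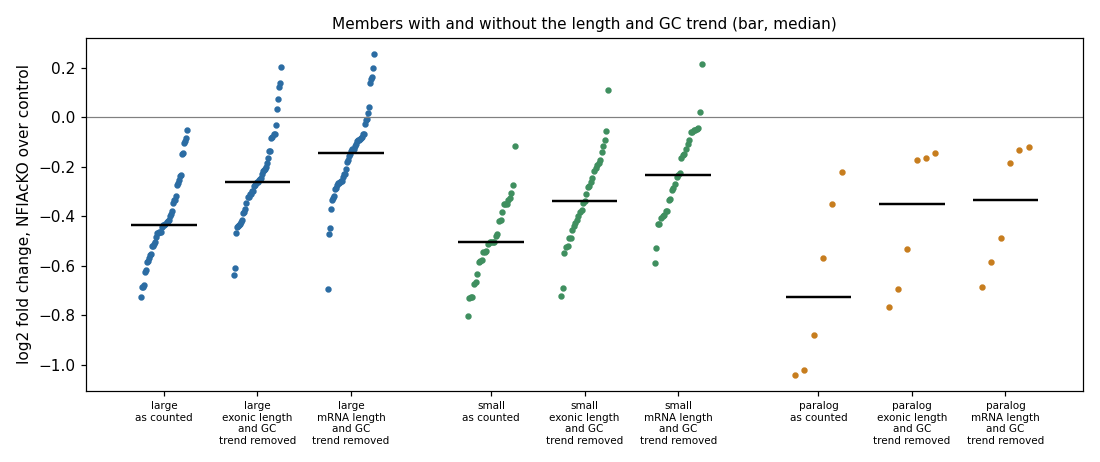
Log2 fold change, NFIAcKO over control (vertical axis), of each large subunit gene, small subunit gene and paralog, as counted and with the trend of exonic length or of mRNA length and GC content removed; bars are medians. The large subunit median moves from -0.44 as counted to -0.26 and -0.14, and the small subunit median from -0.50 to -0.34 and -0.23.

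Among the paralogs, Rpl22l1 had the lowest estimate. It encodes a copy of Rpl22 that, in mice, rises when Rpl22 is lost. Rpl22l1 (ENSMUSG00000039221.10, chr3:28805436-28807424 of GRCm38, plus strand) stood at 12.9, 11.7 and 9.90 CPM in NFIAcKO and 21.8, 29.8 and 19.3 CPM in control. All NFIAcKO libraries lay below all control libraries, and it fell by 1.04 on the log2 scale (SE 0.15, adjusted p = 0.00438), and by 0.76 with the trend of exonic length and GC removed (adjusted p = 0.0111). Rpl22 had 201, 213 and 200.4 CPM in NFIAcKO and 232, 256 and 234 CPM in control (-0.23, SE 0.08, adjusted p = 0.0613). Within each library Rpl22l1 stood at 6.41, 5.52 and 4.94% of Rpl22 in NFIAcKO and 9.39, 11.7 and 8.27% in control. The log2 ratio, with 0.5 CPM added to each gene, was -4.10 ± 0.181 in NFIAcKO and -3.34 ± 0.245 in control, a difference of -0.76 (SD, n = 3 each; exact two-sided permutation p = 0.1, 0.3 adjusted over 6 ratios). With 3 against 3 libraries, 0.1 is the smallest p that the test can give. Exons of Gm33051 overlap Rpl22l1.

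Of the other copies, Rps27l, Rps4l and Rpl7l1 were counted well enough to set against their parent genes. Rps27l, a copy of Rps27 that p53 induces, stood at 16.5, 18.4 and 15.5 CPM in NFIAcKO and 22.6, 31.1 and 21.0 CPM in control. It fell by 0.57 (SE 0.14, adjusted p = 0.0172), and had an estimate of -0.17 with the trend removed (adjusted p = 0.292). It stood at 10.8, 11.3 and 11.5% of Rps27 in NFIAcKO and 9.39, 10.4 and 10.2% in control, a log2 ratio that differed by 0.17 (exact permutation p = 0.1, adjusted 0.3, n = 3 each), opposite in sign to that of Rpl22l1. Rps4l, annotated with a single exon, stood at 68.5, 69.1 and 63.4 CPM in NFIAcKO and 87.0, 98.2 and 71.1 CPM in control, a fall of 0.35 (adjusted p = 0.0361). It kept 19.3, 18.6 and 19.3% of Rps4x in NFIAcKO and 19.9, 21.0 and 16.9% in control, with overlapping groups (exact permutation p = 1, n = 3 each). Its parent Rps4x fell by 0.33, with 354, 372 and 328 CPM in NFIAcKO and 438, 467 and 422 CPM in control (adjusted p = 0.0194).

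Rpl7l1, whose yeast relative acts in building the large subunit, had 75.5, 78.3 and 69.2 CPM in NFIAcKO and 79.3, 95.6 and 84.7 CPM in control (-0.22, adjusted p = 0.106). It stood at 15.3, 14.4 and 14.5% of Rpl7 in NFIAcKO and 11.8, 12.3 and 14.6% in control, with overlap (exact permutation p = 0.3, n = 3 each). Rpl7 itself fell by 0.42, with 492, 543 and 479 CPM in NFIAcKO and 669.6, 775 and 582 CPM in control (adjusted p = 0.0174). Rpl32l and Rps3a2 were barely counted, at 0.372 to 0.518 and 0.216 to 0.289 CPM in NFIAcKO and 0.660 to 1.12 and 0.341 to 0.683 CPM in control, and were not called (adjusted p = 0.108 and 0.109). With nothing added to the CPM, a choice made after seeing the data, the log2 ratio to the parent differed by -0.27 for Rpl32l and -0.63 for Rps3a2 (exact permutation p = 0.3 and 0.2, n = 3 each). The 0.5 CPM added elsewhere is about as large as their levels, and gives 0.11 and -0.072. Their parents fell: Rpl32 by 0.58 (adjusted p = 0.00754, exons shared with Cand2) and Rps3a1 by 0.35 (adjusted p = 0.0247). Rpl32 had 269, 295 and 244 CPM in NFIAcKO and 404, 470.3 and 337 CPM in control. Rps3a1 had 305, 333 and 299 CPM in NFIAcKO and 387, 447 and 358 CPM in control.

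**Figure D5:**
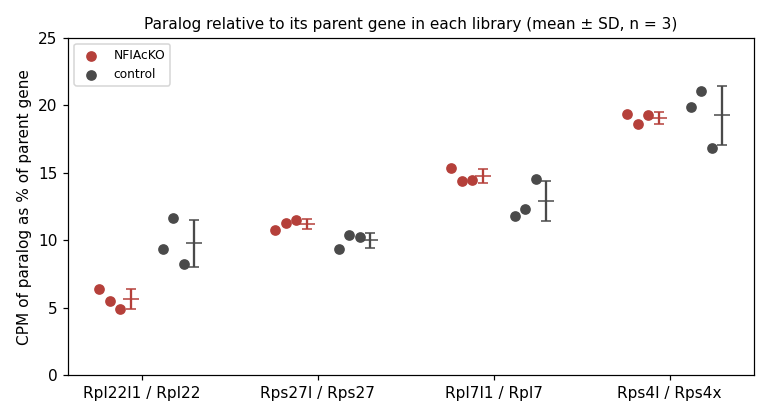
CPM of each paralog as a percentage of its parent gene's CPM in the same library (vertical axis), with the mean and SD of 3 libraries beside the points, NFIAcKO in red and control in grey. Rpl22l1 lies at 4.94 to 6.41% of Rpl22 in NFIAcKO and at 8.27 to 11.7% in control; the other 3 pairs lie closer together between groups.

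Ribosomal proteins with other symbols were tested too. Rack1, the scaffold protein on the small subunit head, stood at 502, 539 and 445 CPM in NFIAcKO and 708, 859.9 and 625 CPM in control, a fall of 0.56 (adjusted p = 0.00881). Fau, a fusion of a ubiquitin-like protein with a small subunit protein, stood at 171, 194 and 161 CPM in NFIAcKO and 242, 292 and 213 CPM in control, a fall of 0.51 (adjusted p = 0.0111). Exons of Rack1 overlap other genes. In all, 2 of 5 such genes fell and 0 rose, beside 6.08% of all genes lower and 7.86% higher. All 5 estimates lay below 0 (median log2 fold change -0.56). With the trend of exonic length and GC removed, 2 were lower (median -0.41).

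The wider machinery of translation did not share this one direction. For the lists and markers below, the shares over all genes tested were 7.86% higher and 6.08% lower. With the trend of exonic length and GC removed they were 3.83% higher and 3.88% lower. Values of single genes named below are as counted, with no trend removed. Median mRNA length was 2631 bases in the initiation factors and 2673 in the elongation and release factors. Of 36 initiation factors, 5 rose and 6 fell (median -0.15), and with the trend of exonic length and GC removed 3 were higher and 2 lower. Eif3a, the largest scaffold of the eIF3 complex, stood at 438, 483 and 450.3 CPM in NFIAcKO and 321, 259 and 364 CPM in control, a rise of 0.54 (adjusted p = 0.00881), while Eif3i, a small subunit of the same complex, fell by 0.52 (adjusted p = 0.00837), with 89.9, 95.3 and 82.5 CPM in NFIAcKO and 125, 149 and 109.5 CPM in control. Eif4g3, a scaffold of the cap-binding complex, rose by 0.48 (adjusted p = 0.00868). Of 14 genes listed as elongation and release factors, 3 fell and 0 rose in edgeR. Eef1a1, which delivers aminoacyl-tRNA, fell by 0.39 (adjusted p = 0.0308) and its exchange factor Eef1b2 by 0.36 (0.0295). Eef1e1, whose role in elongation was not examined here, fell by 0.37 (0.0134). With the trend removed, 1 was lower. Exons of Eef1b2 and Eef1a1 overlap other genes.

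Genes that build ribosomes were mostly not called. Of 65 biogenesis factors tested, 3 rose and 5 fell (median -0.01), beside 7.86% of all genes higher and 6.08% lower. Once the trend was removed, 2 were higher and 4 lower. Emg1, an rRNA methyltransferase whose exons overlap Lpcat3, and Nip7 fell by 0.45 each (adjusted p = 0.0116 and 0.0148), and Mdn1, a very large ATPase of large subunit maturation, rose by 0.59 (0.0147). Of 15 genes of RNA polymerase I and rDNA transcription, 1 rose and 3 fell (median -0.10), with 1 higher and 1 lower once the trend was removed. Polr1a, the largest subunit of the polymerase, stood at 54.0, 49.0 and 51.5 CPM in NFIAcKO and 33.7, 31.1 and 38.2 CPM in control, a rise of 0.59 (adjusted p = 0.00438). Polr1c, a subunit shared with polymerase III, stood at 36.4, 39.5 and 32.4 CPM in NFIAcKO and 51.2, 58.9 and 45.3 CPM in control, a fall of 0.52 (adjusted p = 0.00868), and Taf1b fell by 0.36 (0.0379). As counted, subunits of 1 polymerase thus moved both ways. Polr1a is long, with 11871 exonic bases beside a median of 3976 over all genes tested. The part of length in this contrast was not tested. Of 10 chaperones and importers of ribosomal proteins, Tnpo1 rose by 0.28 (adjusted p = 0.0361), Pdcd2l fell by 0.42 (0.0224), and Ipo9 had an estimate of 0.26 (0.066); none was called with the trend removed.

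Of 24 other genes with a terminal tract or that host small nucleolar RNAs, 9 fell and 1 rose (median -0.27), and 2 were lower and 1 higher with the trend of exonic length and GC removed (median -0.12). Naca, a chaperone of nascent chains, fell by 0.40, with 300.1, 333 and 299 CPM in NFIAcKO and 402, 468 and 360.3 CPM in control (adjusted p = 0.0174). Snhg1, a host of small nucleolar RNAs that overlap its annotation, fell by 0.47 (adjusted p = 0.0221). Pabpc1, the poly(A)-binding protein, whose mRNA also has a tract, rose by 0.41, with 660.0, 697 and 716 CPM in NFIAcKO and 512, 443 and 607 CPM in control (adjusted p = 0.0212). Of 32 regulators, 6 rose and 3 fell (median 0.12), with 2 higher and 3 lower once the trend was removed. Larp1, which binds the tract, rose by 0.44, with 207, 195 and 194 CPM in NFIAcKO and 144, 122 and 172 CPM in control (adjusted p = 0.0161). Cnbp, which also binds such mRNAs, fell by 0.37 (adjusted p = 0.0137), and Maf1, a repressor of polymerase III, fell by 0.32 (0.0178).

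Mitochondrial ribosomal protein genes were also lower. Of 75 tested, 30 fell and 0 rose in edgeR (median -0.27), beside 6.08% of all genes lower and 7.86% higher. Mrps7 fell by 0.47 (adjusted p = 0.00955), with 35.5, 40.4 and 37.7 CPM in NFIAcKO and 52.9, 58.1 and 45.7 CPM in control. Mrps16 fell by 0.56 (0.0111) and Mrpl12 by 0.47 (0.0117). Their median mRNA length was 1339 bases. With the trend of exonic length and GC removed, 15 were lower, beside 3.88% of all genes. Whether they differ from the cytosolic genes was not tested.

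Markers of other cells did not move with the ribosomal protein genes in one way. Microglial markers summed to 65.8 to 72.3 CPM in NFIAcKO and 81.8 to 89.4 CPM in control, with 2 of 6 lower, and none was near 0 CPM. All 6 microglial estimates lay below 0, with a median log2 fold change of -0.38, and of -0.20 with the trend of exonic length and GC removed. As counted, the medians of progenitor, neuronal, erythroid and endothelial markers were 0.12, 0.14, 0.03 and 0.27. Progenitor markers summed to 2369 to 2699 CPM in NFIAcKO and 2411 to 2671 CPM in control, with 2 higher (Nes and Mki67) and 2 lower (Hes5 and Fabp7) of 7. Neuronal markers summed to 10234 to 10678 CPM in NFIAcKO and 9129 to 9474 CPM in control, with 2 of 8 higher. Erythroid markers summed to 1427 to 2095 CPM in NFIAcKO and 1736 to 1977 CPM in control, with 1 of 8 higher, and endothelial markers to 309.8 to 332 CPM in NFIAcKO and 245 to 290.4 CPM in control, with 3 higher and 1 lower of 5. None of the meningeal, sensory ganglion or muscle markers was called. With the trend of exonic length and GC removed, no progenitor or microglial marker was called, and 3 neuronal, 2 erythroid and 2 endothelial markers were higher and 0 lower. The part of cell composition in the lower ribosomal protein counts was not tested.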

How the data were processed

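The authors deposited whole-number counts per gene symbol, not normalized, 1 file for each of 6 libraries. The submitters' processing notes list the mm10 build and the tools STAR 2.6.1a, HTSeq and DESeq2. The labels' protocols name RNeasy columns and an Illumina stranded mRNA kit. Which annotation was counted, and whether by strand, is not given in the sources used here. Genes that overlap on either strand are therefore uncertain. Summary lines that name no gene were left out (16.9 to 19.4% of each file). Libraries of 1 group differed from each other beyond counting noise (chi-square per degree of freedom 10.9 to 45.3). That measure cannot tell separate embryos from separate preparations of 1 embryo. All 6 were counted as separate samples, as labelled.

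Counts were compared with edgeR 4.0.16 in R 4.3.3 (robust quasi-likelihood F test, TMM scaling, filterByExpr, Benjamini-Hochberg adjustment over 17711 genes). A gene's SE was taken as the size of its log2 fold change divided by the root of F. DESeq2 1.42.0 and limma 3.58.1 (voom) were alternatives, as were other scalings and filters, each library left out, and blocks. The test was tested on simulated data. Trends with length and GC were fitted per library by natural splines with 5 degrees of freedom and entered as offsets. Coordinates, lengths and overlaps came from GENCODE M21 of GRCm38, and 98.7% of tested genes had a length. Near-identical copies were found with blastn among annotated transcripts. Paralog ratios were compared by the exact two-sided permutation test.

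The members, gene lists and tests were chosen with earlier results of these data known. In each subunit the text names the 5 genes with the smallest p, the 2 highest and 2 lowest fold changes and the 3 highest levels per length, then every paralog with its parent and the 3 smallest p of each pathway list. Others were chosen after their values were seen. Some genes that these rules name are not reported here.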

Additional observations from a re-analysis of the deposited data

How the results depend on the processing

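Under RLE, upper quartile or library total scaling, scaling without the members, DESeq2, limma-voom and other low-count filters, every member kept an estimate below 0, and the 32 large, 26 small and 3 paralog calls stayed called, with up to 6 more large and 2 more small subunit genes and 1 more paralog. Beside the ratios of Rpl32l and Rps3a2, only the trends and the libraries left out moved the members' results by over 1.5 times. With the trend of exonic length and GC removed, 17 small subunit genes and 1 paralog were called lower, with medians of -0.26 for the large subunit and -0.35 for the paralogs. With mRNA length instead, chosen after seeing the data, 12 large and 13 small subunit genes and 1 paralog were called lower, with medians of -0.14, -0.23 and -0.33. With the trend removed, the difference in log2 ratio to the parent was 0.32 for Rps27l and 0.078 for Rpl7l1, and for the barely counted Rpl32l and Rps3a2 -0.24 (opposite in sign to 0.11 as reported) and -0.64. With nothing added to the CPM, chosen after seeing the data, these last were -0.27 and -0.63, since the added 0.5 CPM is near their levels. The cause was not tested. Over all genes, 1392 were higher and 1076 lower as reported, 1057 and 1434 with upper quartile scaling, and 901 and 1656 on library totals. With the trend removed they were 678 and 687, and by mRNA length 405 and 406. Of the 266 pathway genes tested, 16 were higher and 59 lower as reported, 9 higher on library totals, 8 and 30 with the trend removed, and 4 and 17 by mRNA length. In the 4 libraries that share a number in their deposited names, 2888 genes were higher and 2356 lower, 39 and 92 of them pathway genes, and 37 large and 29 small subunit genes were lower.

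With 1 library left out, the large subunit had 7 to 38 genes called lower, the small subunit 9 to 28, the paralogs 1 to 4, the pathway genes 1 to 106 lower and 2 to 35 higher, and all genes 139 to 2466 lower and 282 to 2703 higher. The medians ran from -0.53 to -0.33, from -0.62 to -0.40 and from -0.85 to -0.48 for large, small and paralogs. With the trend also removed, chosen after seeing the data, the ranges were 0 to 32, 0 to 23, 0 to 2, 0 to 62 and 0 to 34, 1 to 1863 and 1 to 1865, and the medians ran from -0.32 to -0.20, from -0.42 to -0.25 and from -0.44 to -0.24. The lowest counts came without NFIAcKO replicate 1 or 3 or control replicate 1, and the highest without control replicate 3.

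With the replicate number as a block, 34 large and 29 small subunit genes and 3 paralogs were called lower, and 1353 genes were higher and 1119 lower in all. Same-numbered libraries deviated together with correlations of 0.0875, 0.12 and 0.119, each library correlating best with its own number, and nothing in the labels says that they share a source, so the numbers were not taken as pairs. With the block and the trend removed, chosen after seeing the data, 27 large and 20 small subunit genes and 1 paralog were lower (medians -0.26, -0.34 and -0.34), 708 genes were higher in all, and 10 pathway genes were higher and 38 lower. Counting is deep for most members, and only Rpl24, Rps10, Rpl32l and Rps3a2 stood at a few CPM or less in every library. For Rpl24 and Rps10, reads on exons shared with another gene may have been set aside, which was not tested.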
